A study of Mus musculus with 3 samples.

Results

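Isolated moderate ERRα regions are places on mouse liver chromatin where the chromatin immunoprecipitation (ChIP) of the estrogen-related receptor ERRα stood 3-fold to below 10-fold above its control and no other ERRα region lay within 12500 bp. They were chosen by the ERRα and control coverage of the deposited tracks, and they numbered 10655 of 21676 ERRα regions on chromosomes 1 to 19, or 49.2%. Of the covered 200-bp bins on these chromosomes, 0.346% were called for ERRα. Sequencing after ChIP had been done on liver chromatin of C57Bl/6 males, 2 to 3 months old, in a study of how mTOR and ERRα meet in fatty liver caused by rapamycin; the labels name no genotype or treatment for these mice. There were 3 groups of 1 library each: an ERRα ChIP, an mTOR ChIP and a control for which rabbit immunoglobulin G (IgG) took the place of the antibody. For each ChIP 8 immunoprecipitations were combined, with chromatin from 26 livers, and the labels give no such number for IgG. Animals cannot be told apart, and no value below has a replicate check or a test between groups. The chromatin came from whole liver, and a weak signal in all cells cannot be told apart from a strong signal in a few.

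ERRα, encoded by Esrra, is an orphan nuclear receptor. It binds DNA through zinc fingers, alone or as a pair, at an extended form of the half-site that many nuclear receptors share, and works with PGC-1 coactivators on genes of oxidative phosphorylation, the tricarboxylic acid cycle and fatty acid oxidation. mTOR is the serine/threonine kinase that senses nutrients and growth factors and that rapamycin inhibits. Genomic sites of nuclear receptors commonly form both clusters and single sites.

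Coverage is given per 10000000 tags, as the authors scaled it. The headers of the tracks give 62500000 tags for mTOR, 74200000 for ERRα and 68800000 for IgG, so 1 tag was worth 0.16, 0.135 and 0.145 units. The mean over 200-bp bins was used, and a bin was called where ERRα coverage was above 2.0 and, after adding 0.2 to both values, at least 3 times IgG. Adjacent bins were merged, and each region took the fold of its bin with most ERRα. Ratios carry 95% counting intervals (Clopper-Pearson, exact), worked out from approximate tag numbers without the added 0.2. They cover counting error only and make no allowance for the selection. Regions are given by position on build mm9; genes and sequence at these positions were not analysed here.

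The values that chose the regions are given first, as a description. In the highest bin the median ERRα coverage was 3.19, with quartiles of 2.53 and 4.26, and the median IgG coverage was 0.609 (0.5 and 0.798). At the typical site this was about 32 ERRα tags against 6 IgG tags. The median fold was 4.05, with quartiles of 3.42 and 5.19. Low folds prevailed: 5183 regions (48.6%) were at 3-fold to below 4-fold, 2524 at 4-fold to below 5-fold, 1998 at 5-fold to below 7-fold and 950 (8.92%) at 7-fold to below 10-fold. The counting interval of ERRα over IgG lay above 1 in all 10655 regions, which the rule itself brought about, above 2 in 5351 (50.2%) and above 3 in 1861 (17.5%). For the other members the interval thus reached below 3, the limit by which they were chosen.

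**Figure D1:**
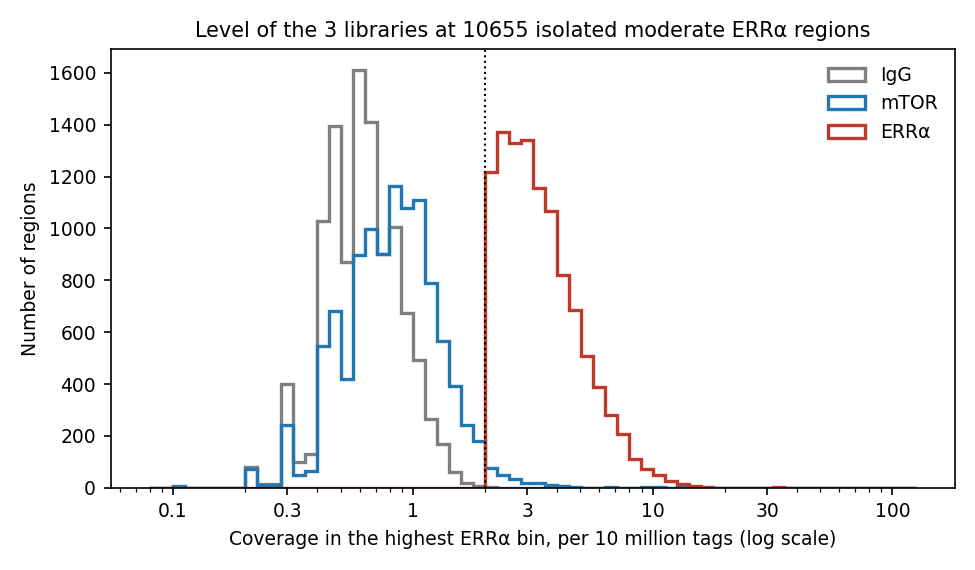
Number of isolated moderate ERRα regions (y axis) by mean coverage in the highest ERRα bin (x axis, per 10000000 tags, log scale) in the ERRα ChIP, the mTOR ChIP and IgG; the dotted line marks the minimum ERRα level of 2.0. The mTOR values, with a median of 0.820, lie mostly over the IgG values, with a median of 0.609, and only a thin tail passes 2.0.

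At the limits the set had no natural edge. Member folds ran from 3.000 to 9.998, and the next isolated region had 10.01; 205 members were at 9-fold or more and 139 isolated regions at 10-fold to below 11-fold. Members began at a distance of 12600 bp from the next region, where there were 67, against 71 moderate regions at 12400 bp. The lowest ERRα level was 2.0005, and 1033 members reached at most 2.2.

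Most regions were narrow. A single 200-bp bin made up 5686 regions (53.4%), 3461 were 400 bp wide, 1213 were 600 bp wide and 295 (2.77%) were wider. At base resolution the peak of ERRα coverage had a median width of 406 bp at 50% of its maximum (quartiles 328 and 502), against 358 bp at the 710 isolated regions of 10-fold or more and 424 bp at the 9429 moderate regions with a neighbour within 12500 bp. Among members this width fell from 434 bp in the lowest to 381 bp in the highest of 5 equal groups by fold. The lower the peak, the fewer tags defined its shape.

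The regions nearest the median fold on each of the 19 chromosomes show what a typical site looked like. ERRα coverage at these 19 sites was 2.23 to 5.47, IgG coverage 0.4 to 1.2 and mTOR coverage 0.511 to 2.42. At chr1:167550201-167550400 coverage was 2.23 in ERRα, 0.763 in mTOR and 0.4 in IgG, so that ERRα was 4.05-fold over IgG with an interval of 1.73 to 20.4. At chr9:44155801-44156200 the values were 5.33, 1.00 and 1.16, again 4.05-fold, with a narrower interval of 2.31 to 9.49 because more tags lay there. The site on chromosome 19, chr19:44592601-44592800, had 3.06 in ERRα, 1.52 in mTOR and 0.604 in IgG. The mTOR to IgG interval included 1 at all 19 sites, and ERRα exceeded mTOR beyond counting error at 18 of them, the exception being the one on chromosome 19 (ratio 1.89, interval 0.984 to 4.06).

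At the upper limit, the 5 members of highest fold differed much in level. At chr7:87069801-87070400 ERRα coverage was 16.4 against 0.7 in mTOR and 1.46 in IgG, a fold of 9.998 with an interval of 6.61 to 22.3. At chr3:61025801-61026200 a fold of 9.98 came from 3.99 in ERRα and 0.220 in IgG, about 2 IgG tags, and the interval ran from 4.68 to 155. The other members of this rank were chr4:134966801-134967600, chr4:148858801-148859400 and chr13:38857801-38858400. At chr4:148858801-148859400 mTOR was raised as well: coverage was 7.79 in ERRα, 3.42 in mTOR and 0.6 in IgG, so that mTOR was 4.53-fold over IgG (2.17 to 15.7). In the other 4 the interval of mTOR over IgG included 1.

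At the lower limit, the 5 members of lowest fold all stood at 3.00-fold and had 25 to 38 ERRα tags. At chr16:74920601-74921000 coverage was 3.83 in ERRα, 1.22 in mTOR and 1.14 in IgG (interval of ERRα over IgG 1.72 to 7.93). The other 4 were chr4:71825001-71825200, chr4:115673201-115673400, chr2:74880801-74881000 and chr6:30288001-30288200. In all 5 the interval of mTOR over IgG included 1, and at chr4:115673201-115673400 mTOR was also not distinguishable from ERRα (2.69 in ERRα against 1.56 in mTOR, ratio interval 0.872 to 3.69).

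The highest ERRα levels belonged to another kind of site. At chr18:3004001-3005200 coverage was 118 in ERRα, 15.6 in mTOR and 15.5 in IgG, and 33.1% of the bins within 12500 bp had neither ERRα nor IgG coverage. At chr10:21861801-21862200 the values were 37.0, 10.7 and 8.16, at chr16:3350001-3350400 34.7, 8.76 and 9, at chr5:17403601-17403800 33.8, 9.73 and 10.1, and at chr4:146807001-146807800 30.6, 4.46 and 4.68. All 5 were bright in IgG, and mTOR equalled IgG within counting error in each, with ratios of 0.953 to 1.30. ERRα was nevertheless 3.30-fold to 7.53-fold over IgG with narrow intervals, such as 6.39 to 9.13 on chromosome 18. In all, 11 members had IgG above 2.0 in the highest ERRα bin, with ERRα levels of 7.54 to 118. Their median ratio of mTOR to IgG was 0.974.

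The 5 widest members spanned 1400 to 1800 bp. The widest, chr17:29521401-29523200, had 5.45 in ERRα, 1.83 in mTOR and 0.8 in IgG. Next came chr6:90282401-90284000 (12.2, 1.10 and 1.16), chr9:71537201-71538800 (7.52, 0.6 and 0.886), chr4:141383001-141384600 (7.73, 0.853 and 1.13) and, among those of 1400 bp the one of highest fold, chr6:120099401-120100800 (7.75, 1.07 and 0.6). They stood at 5.65-fold to 9.94-fold, and none had an interval of mTOR over IgG above 1.

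mTOR coverage took no part in the choice of regions, so it could be examined at them. In the highest ERRα bin the median mTOR coverage was 0.820, with quartiles of 0.6 and 1.09, or about 7 tags. Relative to the flanks 2 to 5 kb away, with 0.2 added to both values, mTOR stood at a median of 1.18 (quartiles 0.926 and 1.49), IgG at 0.984 (0.826 and 1.19) and ERRα, by choice, at 4.0. mTOR was above its flanks in 7187 regions (67.5%) and IgG in 5089 (47.8%). Over all 21676 ERRα regions these shares were close, at 67.8% and 47.1%. The rule used IgG in this bin and favoured low values, so IgG over flanks is shown beside mTOR as a value and not as a neutral baseline. At least 2-fold over flanks were 821 regions (7.71%) in mTOR and 116 (1.09%) in IgG, against 8.66% and 0.983% of all ERRα regions. Summed over all members, the rise of mTOR above its flanks came to 6.58% of that of ERRα, and the value for IgG was -0.364%. Single bright flanks can carry such sums. Flank coverage reached 312 in ERRα, 337 in mTOR and 364 in IgG, against medians of 0.662, 0.673 and 0.644. Sums without such flanks were not taken, so the sign of the IgG value has no reading. Only 1 library stands behind each value of this paragraph, and the mTOR rise was not tested against a repeat.

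**Figure D2:**
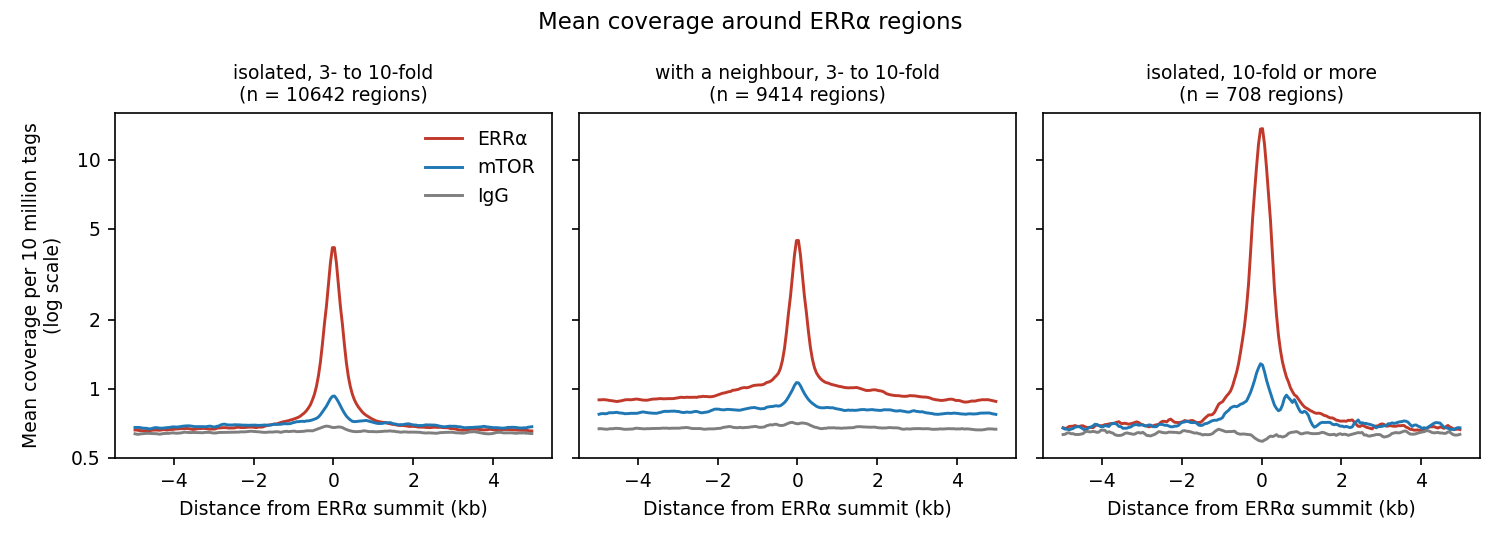
Mean coverage per 10000000 tags (y axis, log scale) in 50-bp steps up to 5 kb on both sides of the ERRα summit (x axis) for ERRα, mTOR and IgG, at isolated moderate regions, moderate regions with a neighbour and isolated regions of 10-fold or more; regions with IgG above 2.0 were left out, and so were 2 strong regions at chromosome ends. A small mTOR rise sits at the ERRα summit in all 3 panels. At 2 to 5 kb both ChIPs lie above IgG in all 3 panels. There ERRα and mTOR averaged 0.669 and 0.684 against 0.643 in IgG at members. With a neighbour near they stood farther above it, at 0.909 and 0.789 against 0.67.

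The position of the mTOR signal was examined as well. The highest 100-bp bin of mTOR within 1 kb of the ERRα summit bin lay within 100 bp of it in 2568 regions (24.1%). The share over all 21676 ERRα regions was 24.8%, and an even spread over the window would give 14.3%. IgG, measured alike at members, gave 13.6%. The rule favoured a low IgG value in the summit bin, so IgG is no neutral baseline here. Its share fell from 15.9% in the lowest to 11.9% in the highest of 5 equal groups by fold. In the mean profile of 10642 members mTOR rose from 0.684 at 2 to 5 kb to 0.929 at the summit, a ratio of 1.36, against 1.05 for IgG and 6.19 for ERRα. These are ratios of means in 50-bp steps without the added 0.2, so they are not on the scale of the medians above.

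Among members, mTOR did not climb steadily with ERRα fold. With the regions in 5 equal groups by fold, the median mTOR level over flanks was 1.18, 1.18, 1.15, 1.17 and 1.22 from the lowest to the highest group. IgG over flanks fell at the same time from 1.05 to 0.928, because a low IgG value raises the fold. The ratio of mTOR to IgG therefore rose from 1.13 to 1.36 without a matching rise of mTOR over its flanks. The share with the highest mTOR bin near the ERRα summit was 23.2%, 24.4%, 22.2%, 24.4% and 26.3%. Beyond the limit of 10-fold, the isolated strong regions stood at 1.4 (1.04 and 1.91) over flanks in mTOR and at 0.892 in IgG, with the mTOR maximum near the summit in 36.9%. The step from the highest group of members to the strong regions, 1.22 to 1.4, exceeded the range over the 5 groups, but the quartiles overlapped widely and the difference has no test.

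**Figure D3:**
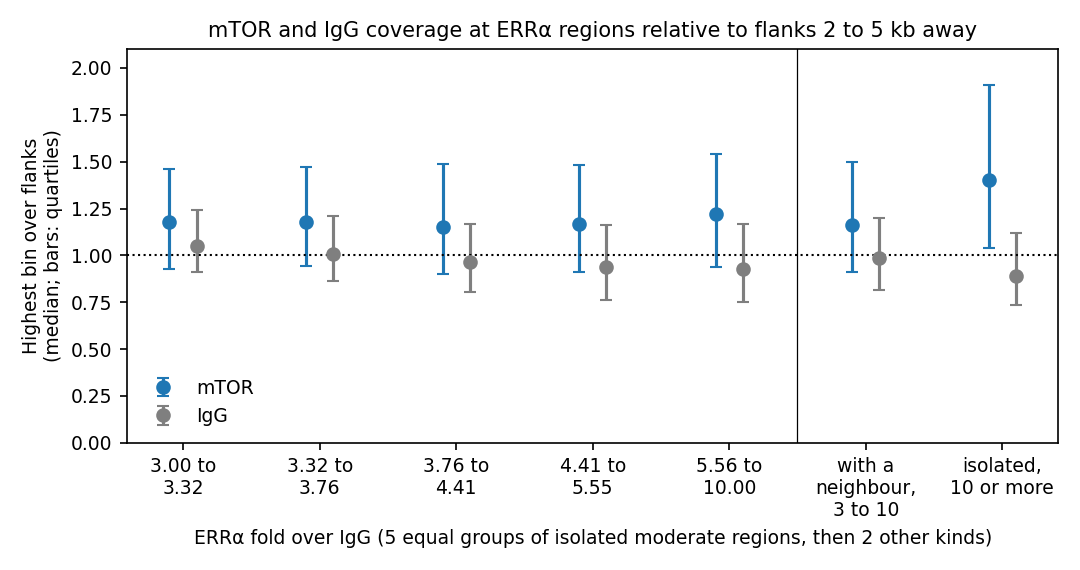
Coverage of the highest ERRα bin over that of flanks 2 to 5 kb away (y axis; points are medians, bars reach the quartiles) in mTOR and IgG for 5 equal groups of isolated moderate regions ordered by ERRα fold, and for moderate regions with a neighbour and isolated regions of 10-fold or more (x axis). Within the 5 groups the mTOR medians stay between 1.15 and 1.22 while the IgG medians fall from 1.05 to 0.928.

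mTOR moved with IgG and ERRα over the members. When they were ordered by IgG level instead, mTOR over flanks rose from a median of 1.05 in the lowest group to 1.12, 1.16, 1.23 and 1.35 in the highest, where IgG over flanks rose from 0.721 to 1.4. The mTOR to IgG ratio fell from 1.5 to 0.985 over the same groups. ERRα over flanks rose too, from 3.42 to 5.6, since the rule asks for more ERRα where IgG is high, so the rise of mTOR went with both. Spearman's rho between mTOR and IgG over flanks was 0.32 over the 10655 regions, that between ERRα and mTOR 0.28 and that between ERRα and IgG 0.60. These points share libraries, and the choice of regions by ERRα over IgG ties the last pair together. How much of the mTOR level at the ERRα summit belongs to sequence that is high in any library was not tested.

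Few members passed as mTOR regions in their own right. An mTOR call, made by the limits used for ERRα, was present in 129 of 10655 members (1.21%, exact binomial interval 1.01 to 1.44), and in 91 (0.854%) it was the highest ERRα bin itself. Of all covered bins, 0.137% were called for mTOR. Members are not drawn from those bins alike, since they were chosen to have few IgG tags for many ERRα tags and can span several bins. The counting interval of mTOR over IgG lay above 1 in 363 members (3.41%), against 0.471% of all covered bins, and below 1 in 4. Covered bins had a median mTOR coverage of 0.527, lower than the 0.820 of members, and fewer tags leave fewer intervals clear of 1. In the 129 members with a call the median coverage was 3.94 in ERRα, 2.64 in mTOR and 0.6 in IgG. mTOR was higher than ERRα in 32 of them, and 6 were at 10-fold or more over IgG in mTOR. Calls were found in 12, 11, 25, 25 and 56 of the 2131 regions in each group from the lowest to the highest fold. Single-bin regions made up 83.1% of the lowest group and 12.4% of the highest, so the latter had more bins that could be called. Median IgG coverage, which both calls share, fell from 0.688 to 0.595. The parts of width and IgG in the rise were not tested.

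The 5 members with the highest mTOR over IgG stood at 13.1-fold to 73.3-fold. The rule holds ERRα below 10-fold over the same IgG value, so mTOR had to exceed ERRα at these sites. At chr11:68853601-68854000 coverage was 64.3 in mTOR, 3.29 in ERRα and 0.680 in IgG, so that mTOR was 73.3-fold over IgG (44.9 to 269) and ERRα 3.96-fold (2.11 to 14.9). mTOR was 13.0 against 3.31 in ERRα at chr18:35930601-35931000, 16.7 against 2.57 at chr3:30500401-30500600, 12.8 against 4.37 at chr7:77670201-77670600 and 6.34 against 2.26 at chr14:55222401-55222600. The first 4 of these, with chr12:58643801-58644000 (6.61 against 2.03), were also the members with the lowest ERRα to mTOR ratio, from 0.0541 to 0.351. Such overlap is partly built in, since the ratio of ERRα to mTOR is the ERRα fold divided by the mTOR fold. Over all members ERRα was below mTOR beyond counting error in 10.

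In the other direction, the 5 members with the highest ERRα to mTOR ratio lay near the upper fold limit, and mTOR coverage was 0.2 to 0.7. After chr7:87069801-87070400, described above, came chr17:30144801-30145400, with 14.2 in ERRα, 0.6 in mTOR and 1.26 in IgG, a ratio of ERRα to mTOR of 18.0 (9.94 to 74.3). At chr14:63490401-63491200 the values were 8.33, 0.3 and 0.757, at chr6:37757801-37758400 6.3, 0.2 and 0.6, and at chr6:115420001-115421000 12.3, 0.580 and 1.26. mTOR was below IgG in all 5, at 0.5 to 0.549 of it, yet each interval included 1. This position was set by the choice. A ratio of 16 or more at a fold below 10 requires mTOR below IgG, and such a ratio favours high folds. Over all members ERRα exceeded mTOR beyond counting error in 9720 (91.2%), near the share of 90.8% over all 21676 ERRα regions, which were chosen for high ERRα.

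Isolation reached far beyond 12500 bp for many members. The median distance to the next ERRα region was 37200 bp, with quartiles of 21600 and 76600 bp. No other region lay within 25 kb of 7232 members, within 50 kb of 4097, within 100 kb of 2037, within 500 kb of 213 and within 1000 kb of 57. Of the 710 isolated strong regions, 12.0% had no other within 100 kb, against 19.1% of members. Isolation at 12500 bp did not mean an empty neighbourhood on a larger scale: within 500 kb on both sides members had a median of 13 other ERRα regions, against 22 for moderate regions with a neighbour. The 1-Mb window with most members, chr4:137000001-138000000, held 20 of them among 40 ERRα regions. Of 2376 windows of 1 Mb covered over at least 50% of their length, 353 (14.9%) held no ERRα region, 665 (28.0%) held members alone, and 243 of these held a single member.

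The most remote members were weak and narrow. At chr15:16691601-16691800, 3942 kb from the next region, coverage was 2.32 in ERRα, 0.453 in mTOR and 0.524 in IgG. The others were chr14:96026201-96026400 (2.90, 0.692 and 0.704), chr7:67180601-67180800 (2.92, 0.797 and 0.547), chr4:24825201-24825600 (5.43, 1.83 and 0.452) and chr4:29008801-29009000 (2.61, 0.4 and 0.548). Only chr4:24825201-24825600 was well above the minimum, at 8.64-fold (4.62 to 47.6), and there mTOR was 3.11-fold over IgG (1.32 to 17.1). With IgG in the place of ERRα the same rule still gave 120 isolated moderate regions, each of a single bin, with a median fold of 3.24, a number equal to 1.13% of the members. All the regions found in that way were isolated and moderate, so the share is one of weak single-bin sites.

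Level declined with distance. From members with a neighbour within 25 kb, over 25 to 50, 50 to 100 and 100 to 500 kb, to those with none within 500 kb, the median ERRα coverage was 3.35, 3.25, 3.11, 3.01 and 2.68. The share of single-bin regions rose from 49.5% to 70.4%. Coverage of the flanks fell in all 3 libraries, from 0.701 to 0.504 in ERRα, from 0.716 to 0.506 in mTOR and less, from 0.660 to 0.540, in IgG. Set against IgG, the flanks dropped from a median of 1.06 to 0.936 in ERRα and from 1.07 to 0.927 in mTOR. At moderate regions with a neighbour the same ratios were 1.23 and 1.13, where flanks can hold the neighbour itself. Flanks at 2 to 5 kb of members hold no ERRα region by choice, so for them this gradient is not one of called sites. The level of these ratios depends on the scaling, since equal medians of covered bins would raise ERRα over IgG by 0.11 and mTOR over IgG by 0.09 on the log2 scale; their order does not.

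**Figure D4:**
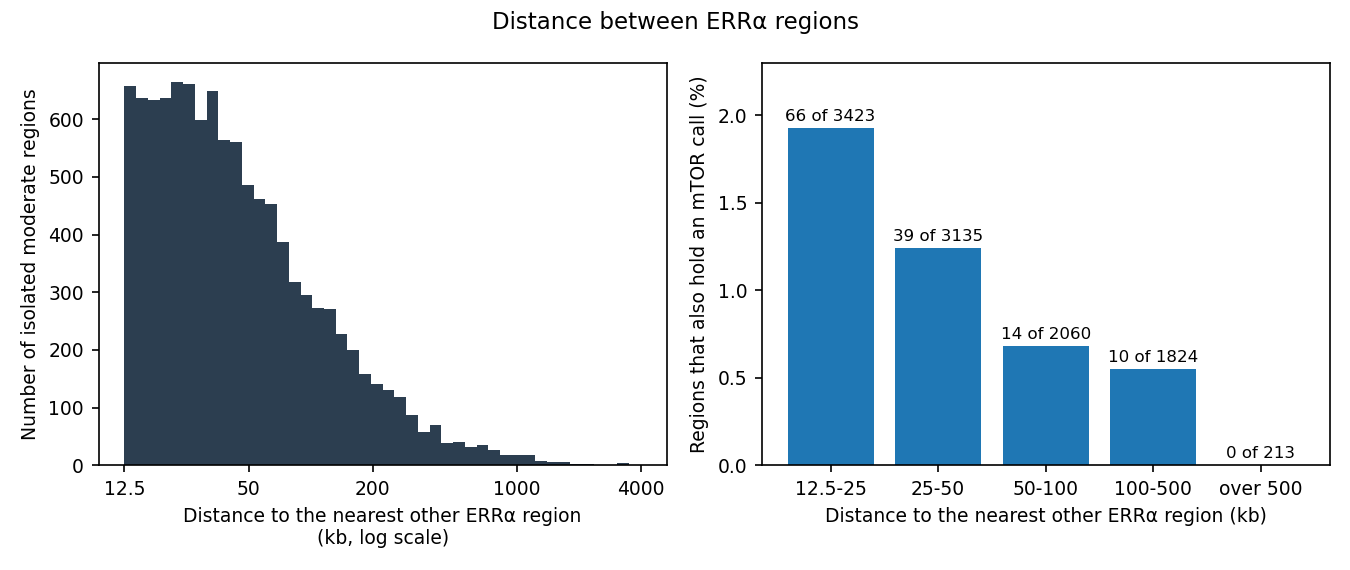
Left, number of isolated moderate regions (y axis) by distance to the nearest other ERRα region (x axis, kb, log scale); right, percent of them that also hold an mTOR call (y axis) in 5 classes of that distance (x axis), with counts above the bars. The share falls from 66 of 3423 up to 25 kb to 0 of 213 beyond 500 kb.

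mTOR calls thinned out with distance as well. They were present in 66 of 3423 members (1.93%) up to 25 kb from the next ERRα region, in 39 of 3135 (1.24%) at 25 to 50 kb, in 14 of 2060 (0.680%) at 50 to 100 kb, in 10 of 1824 (0.548%) at 100 to 500 kb and in 0 of 213 beyond, where a limit of 3 counts allows a share of up to 1.41%. mTOR coverage in the highest bin fell in step, from 0.868 to 0.705, yet its level over flanks did not fall, with medians of 1.17, 1.18, 1.17, 1.19 and 1.30. The fixed minimum level of 2.0 thus met lower coverage at greater distance, and its part in the decline of calls was not tested. An mTOR region lay within 12500 bp, adjacent or apart but without overlap, of 1599 of the 10655 members (15%). The same held for 2826 of the 9429 moderate regions with a neighbour (30%) and for 22.2% of all 21676 ERRα regions. By the rule members have no other ERRα region within 12500 bp. An mTOR region at another ERRα region could thus add to the count of the others but hardly to that of members. The part of this in the difference was not tested.

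Bins that fell short of 1 limit often lay near members, but how often they lie near any position was not counted. Bins touching a region were included, so the edges of its own peak can be among them. Where a region had a neighbour, the edges of the neighbour's peak can count as well. Neither was separated from sites apart. A bin above the minimum level at 2-fold to below 3-fold lay within 12500 bp of 5166 members (48.5%), and a bin of at least 3-fold with ERRα coverage above 1.5 and up to 2.0 near 1962 (18.4%). Neither kind was found near 4398 members (41.3%), against 1188 of the 9429 moderate regions with a neighbour (12.6%). Isolated strong regions were much like members, with shares in the same order of 45.5%, 20% and 44.1%. Over 20% of the bins within 12500 bp had neither ERRα nor IgG coverage at 200 members (1.88%), and over 50% at 1.

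Compared with moderate regions that had a neighbour, members were alike in mTOR over flanks. The rule limited both sets to 3-fold to below 10-fold and parted them by distance. Their likeness in fold and their different surroundings are therefore descriptions of the choice. The median fold was 4.05 against 4.18 and the median mTOR level over flanks 1.18 against 1.16, with IgG at 0.984 in both. An mTOR call was held by 1.21% of members and by 239 of the 9429 others (2.53%), and by 56 of 710 isolated strong regions (7.89%). Their median widths were 200, 400 and 600 bp in this order, and wider regions have more bins that can be called. The ratio of mTOR to IgG in the highest bin was 1.23 (quartiles 0.964 and 1.56) against 1.30 (1.01 and 1.69). Regions of 1 library are not replicates, so these differences carry no test.

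Members were spread more evenly over the chromosomes than other ERRα regions. Their density ran from 3.46 per covered Mb on chromosome 3 to 6.20 on chromosome 11, a 1.79-fold range, with a median of 4.68. Moderate regions with a neighbour ran from 2.14 to 7.70 per Mb on the same chromosomes, a 3.59-fold range, and regions of 10-fold or more from 0.379 to 1.16, a 3.06-fold range. Members therefore made up 57.8% of ERRα regions on chromosome 3 and 40.2% on chromosome 19. Such a narrowing follows in part from the rule itself, since denser placement leaves fewer regions without a neighbour. Over the 19 chromosomes the density of members followed that of protein-coding genes, counted from RefSeq on GRCm38.p6, with Spearman's rho of 0.88 and Pearson's r of 0.78, and for moderate regions with a neighbour these were 0.88 and 0.81. The share of members went the other way, with rho of -0.86. These are descriptions over chromosomes that share 1 pair of libraries. Chromosome 7, with 15.2 coding genes per Mb the most gene-rich, held 4.86 members per Mb, fewer than chromosome 19 with 12.3 genes and 5.65 members per Mb.

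**Figure D5:**
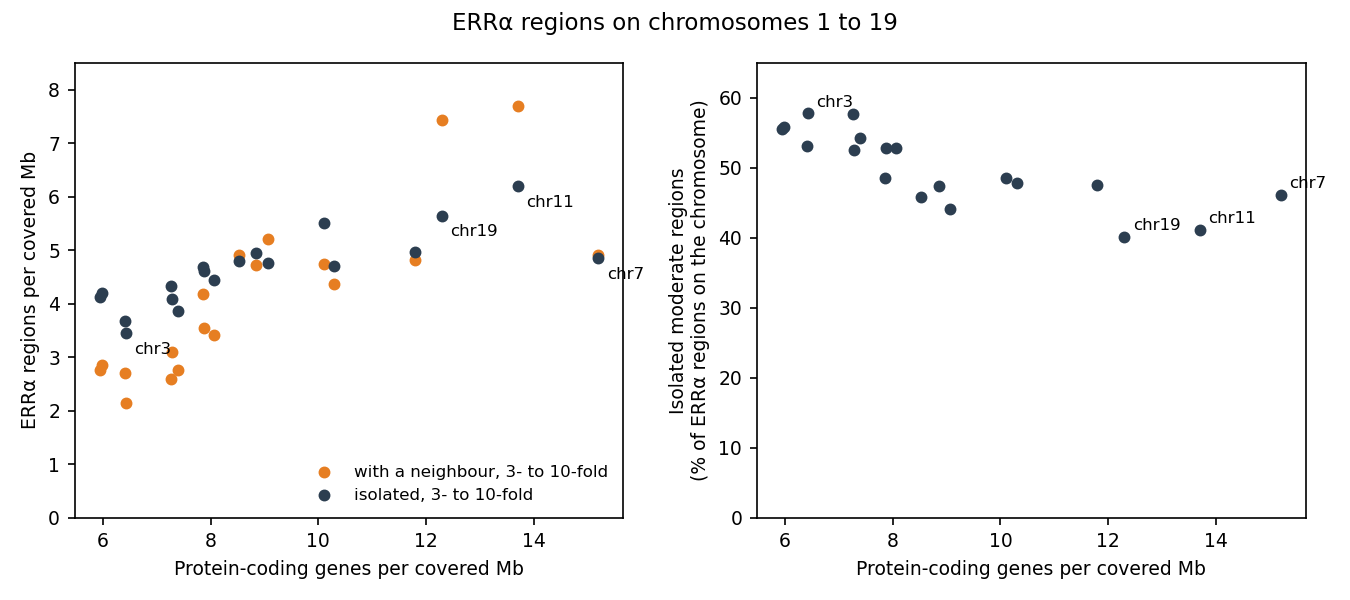
Left, density of isolated moderate regions and of moderate regions with a neighbour (y axis, per covered Mb) on chromosomes 1 to 19 against the density of protein-coding genes (x axis); right, percent of ERRα regions on each chromosome that are isolated and moderate (y axis) against the same density. Isolated regions range from 3.46 to 6.20 per Mb and those with a neighbour from 2.14 to 7.70, while the isolated share falls from 57.8% to 40.2%.

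Median values of members differed little between chromosomes, on each of which the rule set the same limits of fold and ERRα coverage. Median fold was 3.95 to 4.21 over the 19 chromosomes, median ERRα coverage 3.02 to 3.38, and median mTOR level over flanks 1.13 on chromosome 9 to 1.26 on chromosome 18, where IgG over flanks was 0.958 and 1.01. The share with an mTOR call was 0.578% on chromosome 1 to 1.84% on chromosome 16, with few calls behind each value.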

How the data were processed

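Single 50-bp reads of 3 ChIP libraries from mouse liver had been sequenced. The deposited values are signal, that is coverage by tags, which the authors scaled to 10000000 tags per library, per the file headers. BWA 0.5.9, MACS 1.4.1 and mm9 stand in the submitters' processing notes without roles; no source used here gives the program behind the tracks or how duplicates were treated. Coverage summed to 149 to 150 bp per tag, so tags in a bin were approximated with a length of 150 bp.

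Coverage was averaged over 200-bp bins, positions without coverage counting as 0. Distance between regions is the gap between their edges. Groups came from the sample titles. With 1 library per group no test was possible, and results are counts, medians and counting intervals. The members and the comparisons were chosen with earlier results of these data known. Named regions are the 5 members with the highest and the 5 with the lowest fold, the 5 at the extremes of ERRα level, distance, width, mTOR over IgG and ERRα over mTOR in either direction, and the member nearest the median fold on each chromosome. The caller was checked on simulated data. Build mm9 sequence and annotation were not used here, so the planned gene and motif comparisons were not made; a RefSeq table on GRCm38.p6 served only to count genes per chromosome. Alternatives were other distances, pseudocounts, levels, scalings, backgrounds, bins and merging. The tools were NumPy 2.4.6, SciPy 1.17.1, pandas 2.3.3 and Matplotlib 3.10.9 under Python 3.11.15.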

Additional observations from a re-analysis of the deposited data

Results flagged for a closer look

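Chromosome X was outside the rule for members and also gave ERRα regions. Under the same limits it held 135 ERRα regions, of which 94 were isolated and moderate, while IgG in the place of ERRα gave 0. The isolated moderate regions were 69.6% of those on chromosome X, against 49.2% on chromosomes 1 to 19, and their median fold was 5.32 against 4.05. Their density was 0.651 per covered Mb against 4.57 over chromosomes 1 to 19, at a mean ERRα coverage of 0.228 against 0.586 in these male livers. The fixed minimum level of 2.0 is thus harder to reach there. Mean IgG coverage was 0.244 against 0.588, so a bin that passes this level tends to have a higher fold. Sparse regions also leave fewer of them with a neighbour. The parts of these limits in the density, the fold and the isolated share were not tested.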

How the results depend on the processing

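The number of members stayed within 1.5 times of 10655 under all 10 alternatives, from 7232 with an isolation distance of 25 kb to 14553 with 5 kb. Which regions were members changed more: 56.3% of them were touched by a member with a minimum level of 3.0, 74.4% with a pseudocount of 0.4, 80.3% with 100-bp bins and 92.4% with scaling by the median covered bin. The median mTOR level over flanks stayed above 1 in all 10 and moved beyond its order-statistic interval to 1.15 with a minimum level of 1.5, 1.25 with 3.0 and 1.20 with a local background. The share with an mTOR call moved to 0.871% with 25 kb, 1.99% with a minimum level of 1.5, 0.723% with 3.0 and 1.70% with 100-bp bins; the cause was not tested. Median IgG over flanks ranged from 0.915 to 1.11. Depth limits folds: about 6 IgG tags stand behind a typical member. No replicate could be left out, since each group has 1 library.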
